A study of Mus musculus with 6 samples.

Results

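Helper T cell cytokines are the secreted proteins by which CD4+ T cells direct other cells, and 10 of their genes were followed here: Ifng, Il2, Il4, Il5, Il10, Il13, Il17a, Il21, Csf2 and Tnf. Every probe set that the platform annotation assigns to one of these symbols was taken, which gave 10 of the 22626 probe sets tested, 1 for each of these 10 of the 12393 genes measured by a probe set of their own. The study measured RNA from mouse cells separated with magnets as CD4+CD25+, a fraction rich in regulatory T cells (Treg), on 6 biotin-labelled expression arrays. The Dnmt1 knockout group (3 arrays) came from mice labelled fl-DNMT1/Foxp3cre, in which the Cre recombinase driven by Foxp3 acts on a floxed gene for the maintenance DNA methyltransferase. The wild type group (3 arrays) came from C57BL6 mice, the strain named for both groups. The controls are not labelled as carrying the Cre or the floxed allele, so effects of either and of the deletion cannot be told apart. The labels give no age, sex or treatment. They call the knockout samples independent without saying that each is 1 animal, so the p-values rest on the spread between samples that may be technical.

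Naive helper T cells keep most cytokine genes silent and open them as they take on a lineage: Ifng in Th1 cells, Il4, Il5 and Il13 in Th2 cells, Il17a in Th17 cells and Il21 in follicular helper cells. Treg that express Foxp3 are known for repressing Il2 and for making interleukin-10, a brake on immune responses. Methylation of CpG dinucleotides is a known feature of silent cytokine genes in T cells, and Dnmt1 copies it to the new strand when DNA is replicated.

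Dnmt1 itself, by the brighter of its probe sets, read 8.67, 8.89 and 9.34 on knockout replicates 1, 2 and 3, against 9.56, 9.43 and 9.50 on wild type replicates 1, 2 and 3, on the log2 scale. Every knockout array was below every wild type array, and the difference of -0.53 did not pass (limma adjusted p = 0.162). The other probe set had -0.72 (adjusted p = 0.113). The labels do not say where these probes lie relative to the floxed part, so that a remaining signal checks little. Cre acts in cells that express Foxp3, but the cells were separated by CD4 and CD25 and not by Foxp3. Markers of T cells were high on every array, and markers of neutrophils were higher on the knockout arrays, as given further below.

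Levels are given on the deposited log2 RMA scale, on which low transcripts settle on a floor instead of at zero. The floor was read from 108 probe sets of 71 genes of liver, muscle, eye, skin and other tissues that T cells are not known to use. On each array their median was taken as the floor and their 95th percentile as its upper edge. The floor lay at 3.51 to 3.61 on the knockout arrays and at 3.44 to 3.63 on the wild type arrays, and the edge at 5.58 to 5.64 on the knockout arrays and at 5.36 to 5.48 on the wild type arrays. Array medians of all probe sets were 5.71 to 5.77 in the knockout and 5.70 to 5.72 in wild type. Probe sets differ in their own background, so a distance to this floor describes a level and does not show that a transcript is present or absent.

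Above the edge on all 3 knockout arrays were 4 of the 10 cytokine genes, Csf2, Ifng, Il21 and Tnf, where 49.5% of all probe sets were. On all 3 wild type arrays these were 5 genes, Ifng, Il4, Il10, Il21 and Tnf, where 51.2% of all probe sets were. Ifng, Il21 and Tnf were above it on all 6 arrays, Il5 was above it on none, and the other 6 genes were above it on some. The count depends on where the edge is set: with the 90th percentile of the same silent genes it was 7 in the knockout and 5 in wild type, and with the 99th percentile it was 2 in the knockout and 4 in wild type.

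**Figure D1:**
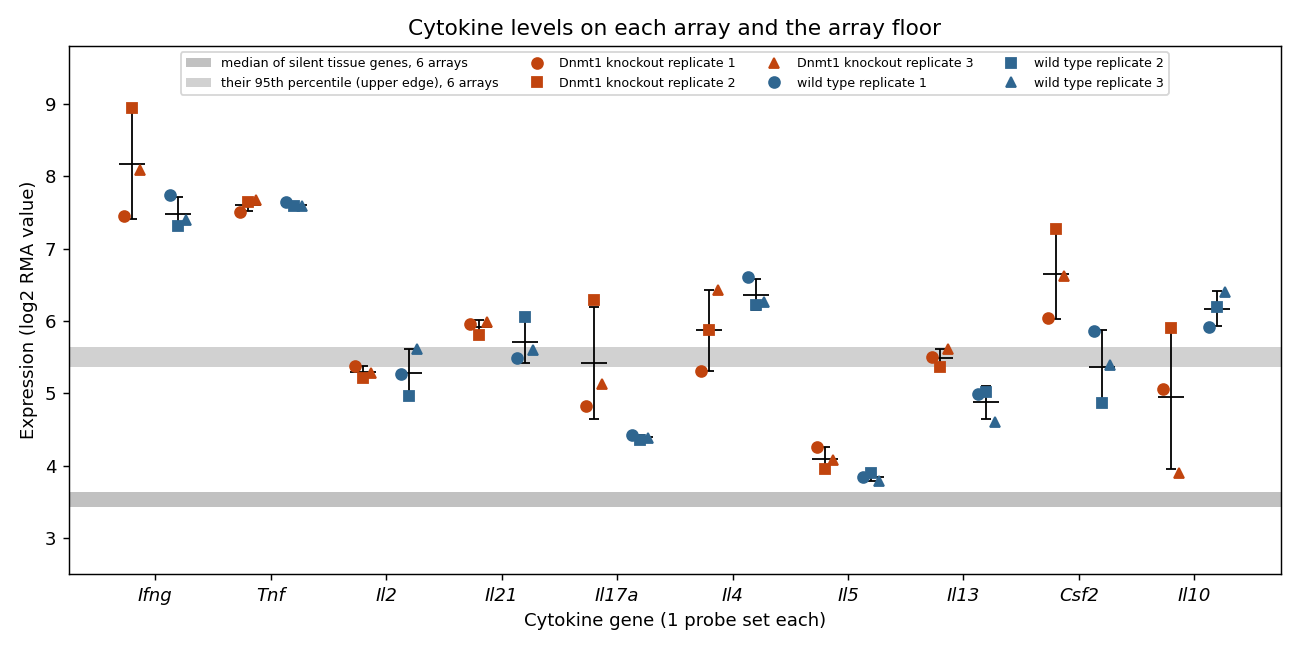
Expression of the 10 cytokine genes (log2 RMA value, 1 probe set each) on 3 Dnmt1 knockout and 3 wild type arrays; symbols mark the replicate, and the black marks the mean with its SD (n = 3). The dark band spans the median of the silent tissue genes over the 6 arrays and the light band their 95th percentile; Ifng and Tnf stand clear of both on every array, and Il5 lies below the upper band on every array.

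None of the 10 cytokine genes passed the test between the groups (0 at a limma adjusted p under 0.05, where 1.68% of all 22626 probe sets passed, 1.19% as higher and 0.486% as lower in the knockout). At an unadjusted p under 0.05 there were 5 of 10, Csf2, Il5, Il10, Il13 and Il17a, where 16.6% of all probe sets had such a p. The knockout arrays lay wholly above the wild type arrays for 4 of the 10 genes, Csf2, Il5, Il13 and Il17a, as for 9.79% of all probe sets. They lay wholly below for Il10 alone, as for 13.6% of all probe sets. Differences, all of them knockout minus wild type, were positive for 7 genes and negative for 3. Their median was 0.23, beside -0.019 over all probe sets.

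**Figure D2:**
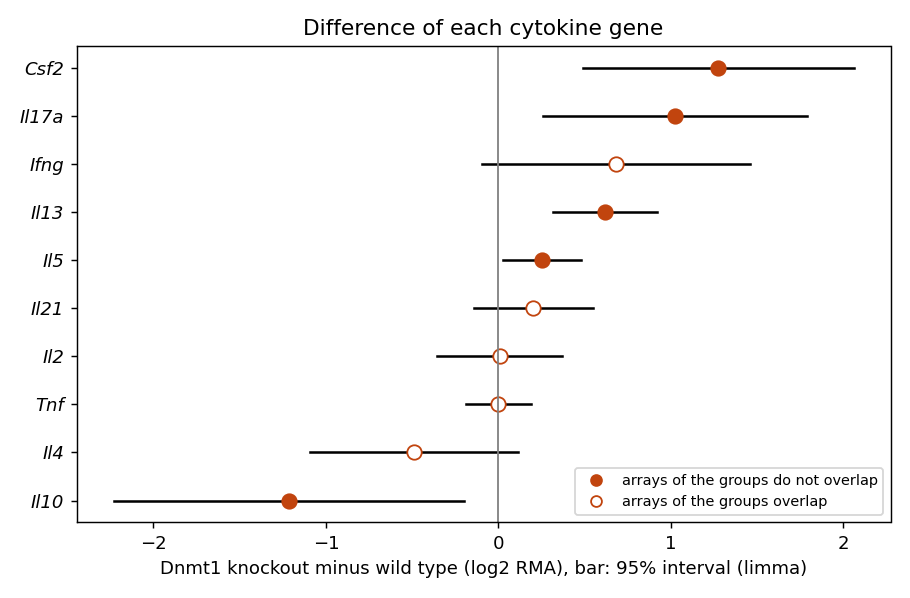
Knockout minus wild type difference of each cytokine gene (log2 RMA) with its 95% confidence interval from limma. Filled points are genes whose knockout and wild type arrays do not overlap; the differences run from -1.22 for Il10 to 1.28 for Csf2, and none passed the adjusted threshold.

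Csf2, which encodes the granulocyte and macrophage colony-stimulating factor GM-CSF, had the largest positive difference of the 10 genes. It had levels of 6.04, 7.27 and 6.62 on knockout replicates 1, 2 and 3, against 5.86, 4.86 and 5.39 on wild type replicates 1, 2 and 3. All knockout arrays were above every wild type array, but the lowest knockout array and the highest wild type array were close. In the knockout Csf2 stood 3.09 above the floor on average and cleared its edge on 3 of 3 arrays. In wild type it stood 1.85 above the floor and cleared the edge on 2 of 3. The difference was 1.28 (SE 0.34, 95% interval 0.49 to 2.06), with a limma adjusted p of 0.123 and a wild type mean 0.061 under the edge of the floor. Without knockout replicate 1 it was 1.58 (adjusted p = 0.0488), the only one of 13 alternatives in which any of the 10 genes passed, and over all alternatives the adjusted p ran from 0.0488 to 0.311.

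Il17a encodes interleukin-17A, a cytokine of Th17 cells that calls in neutrophils. Its levels were 4.83, 6.29 and 5.13 on knockout replicates 1 to 3, against 4.43, 4.35 and 4.39 on the wild type arrays. The wild type arrays were close to each other and all under the edge of the floor, 0.87 above its median. Of the knockout arrays only replicate 2 cleared the edge, by 0.71, and the knockout SD was 0.77 against 0.039 in wild type. The mean difference was 1.03 (SE 0.33, 95% interval 0.26 to 1.79, adjusted p = 0.183). Leaving out knockout replicate 2 lowered it to 0.59 (adjusted p = 0.0651).

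Ifng encodes interferon gamma, the defining cytokine of Th1 cells, which natural killer (NK) and CD8+ T cells also make. It was measured well above the floor throughout, at 7.45, 8.95 and 8.09 on knockout replicates 1 to 3, against 7.74, 7.31 and 7.39 on wild type replicates 1 to 3. That is 3.84 to 5.39 above the floor in the knockout and 3.68 to 4.25 in wild type. The groups overlapped, because knockout replicate 1 was within the wild type range. The difference was 0.68 (SE 0.33, 95% interval -0.094 to 1.46, adjusted p = 0.358), and it was 0.29 without knockout replicate 2 and 1.04 without knockout replicate 1.

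Tnf, the gene of tumour necrosis factor, was the steadiest of the 10 across arrays. It read 7.50, 7.64 and 7.67 on knockout replicates 1 to 3 and 7.64, 7.58 and 7.59 on wild type replicates 1 to 3, a span of 0.17 over all 6 arrays. Every array placed it 3.90 to 4.16 above the floor. The difference was -0.0004 with a 95% interval of -0.19 to 0.19 (adjusted p = 0.999).

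Il2 encodes interleukin-2, the T cell growth factor that Treg consume through the receptor chain CD25. It had 5.38, 5.21 and 5.28 on knockout replicates 1 to 3, against 5.26, 4.97 and 5.62 on wild type replicates 1 to 3. Its level cleared the edge of the floor on 1 array, wild type replicate 3. The difference was 0.0071 (95% interval -0.36 to 0.37, adjusted p = 0.988).

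Il21 encodes interleukin-21, which follicular helper T cells use to help B cells. Its levels of 5.96, 5.81 and 5.98 on knockout replicates 1 to 3, against 5.49, 6.05 and 5.60 on wild type replicates 1 to 3, were just over the edge on every array, by 0.032 to 0.58. The arrays overlapped, with a difference of 0.20 (95% interval -0.14 to 0.55, adjusted p = 0.540) that was 0.088 without wild type replicate 1 and 0.37 without wild type replicate 2.

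Il4, Il13 and Il5, the Th2 cytokine genes, lie together on chromosome 11 and share regulatory elements. Here the difference was negative for Il4 and positive for Il13 and Il5, but none passed. The genes were not tested against each other. Il4, the gene of the interleukin that drives Th2 fate and IgE switching, had 5.31, 5.88 and 6.43 on knockout replicates 1 to 3, against 6.61, 6.22 and 6.26 in wild type. Knockout replicate 3 was within the wild type range, whereas replicates 1 and 2 were below it. The difference was -0.49 (SE 0.26, 95% interval -1.09 to 0.12, adjusted p = 0.401), and it was -0.21 without knockout replicate 1 and -0.77 without knockout replicate 3.

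Il13, whose product acts on airway epithelium and macrophages, had the lowest p of the 10 genes. It read 5.50, 5.37 and 5.62 on knockout replicates 1 to 3, against 4.995, 5.02 and 4.61 on wild type replicates 1 to 3. All knockout arrays were above every wild type array. Of the 6 values 5 were under the edge of the floor, with knockout replicate 3 over it by 0.033. The difference was 0.62 (SE 0.13, 95% interval 0.32 to 0.92, adjusted p = 0.0679), and its adjusted p ran from 0.0565 to 0.175 over the alternatives.

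Il5, the growth factor gene of eosinophils, was the closest of the 10 to the floor. Levels of 4.26, 3.95 and 4.08 on knockout replicates 1 to 3 stood against 3.85, 3.89 and 3.79 in wild type, 0.54 and 0.32 above the floor on average. The lowest knockout array exceeded the highest wild type array by little, and the difference was 0.26 (95% interval 0.029 to 0.48, adjusted p = 0.251). No array of either group brought Il5 within 1 of the edge.

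Il10 had the most negative difference, with 5.06, 5.90 and 3.90 on knockout replicates 1 to 3, against 5.91, 6.20 and 6.40 on wild type replicates 1 to 3. All wild type arrays cleared the edge of the floor, and of the knockout arrays only replicate 2 did. The knockout arrays were spread widely (SD 1.01 against 0.25 in wild type), from just under the lowest wild type array to 0.39 above the floor. The difference was -1.22 (SE 0.44, 95% interval -2.23 to -0.20), with an adjusted p of 0.227 and a knockout mean under the edge of the floor. It was -0.69 without knockout replicate 3 and -1.69 without knockout replicate 2 (adjusted p = 0.0712). Foxp3 itself read 9.28, 8.82 and 8.43 on knockout replicates 1 to 3 and 9.47 to 9.51 on the wild type arrays. Its difference of -0.66 did not pass (limma adjusted p = 0.151). The knockout array with the least Il10 also had the least Foxp3, but Foxp3 was highest on replicate 1 and Il10 on replicate 2. The part of the Foxp3 level in the Il10 values was not tested.

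In genome order the chromosome 11 members are Il4 (53612460 to 53618665), Il13 (53631323 to 53634702), Il5 (53720794 to 53725103) and Csf2 (54247270 to 54249899), in GRCm38.p6. Their differences were -0.49, 0.62, 0.26 and 1.28. None of the measured neighbours among them passed. Kif3a, a kinesin motor gene 8.2 kb from Il4, had 0.45 (adjusted p = 0.103, and -0.062 by its other probe set). Rad50, the DNA repair gene between Il13 and Il5, had 0.064, Irf1 had -0.015, and Il3, 15.2 kb from Csf2, had -0.069 at levels below the edge on every array. The 2 of 23 measured neighbour genes that passed were both around Il2 and Il21 on chromosome 3, and both were lower in the knockout. Spry1, an inhibitor of receptor tyrosine kinase signals 407.3 kb from Il21, was at 7.28 ± 0.26 in the knockout and 8.22 ± 0.04 in wild type (SD, n = 3; difference -0.94, limma adjusted p = 0.0206). The gene listed as 4932438A13Rik, 67.7 kb from Il2, was at 8.49 ± 0.05 and 9.02 ± 0.08 (difference -0.52, adjusted p = 0.0266). Neither passed when any 1 wild type array was left out, with adjusted p values up to 0.106 for Spry1 and 0.133 for 4932438A13Rik, which also failed without knockout replicate 3 and with the replicate number as a block. Adad1, between it and Il2, was under the edge on all arrays. Lta and Ltb, which flank Tnf and encode lymphotoxins, had differences of -0.21 and -0.16 that did not pass.

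**Figure D3:**
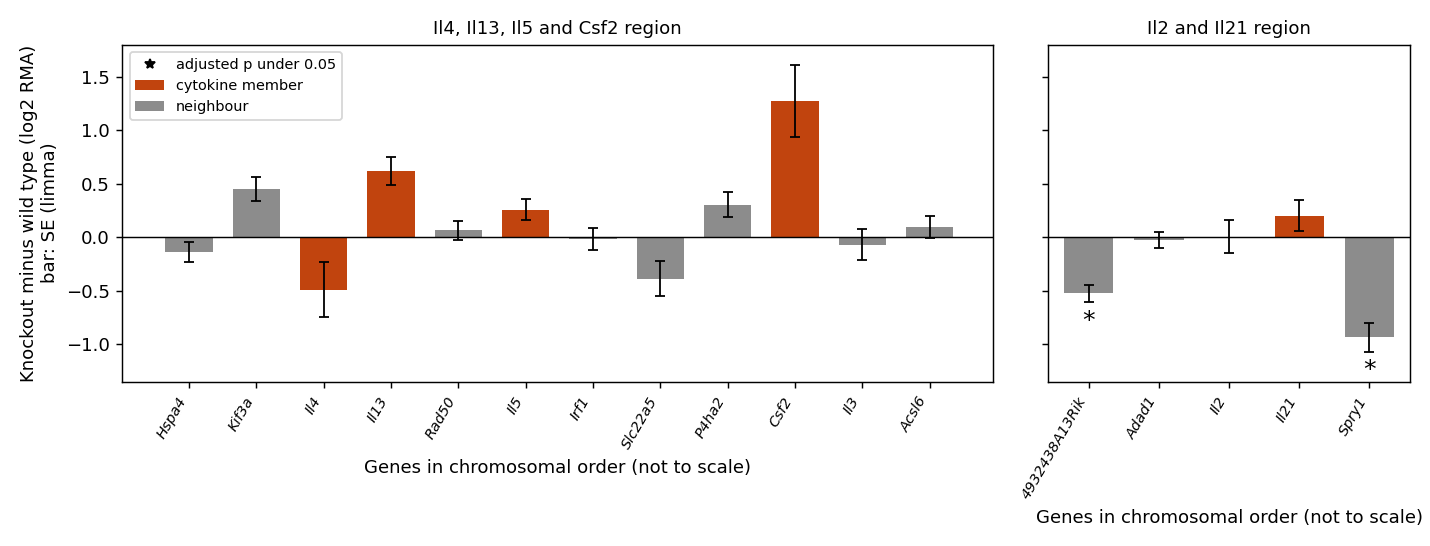
Knockout minus wild type difference (log2 RMA, bars with SE from limma) of cytokine genes and their measured neighbours, in chromosomal order and not to scale, on chromosome 11 (left) and chromosome 3 (right). Asterisks mark an adjusted p under 0.05, which 4932438A13Rik and Spry1 reached and no cytokine gene did; Il4 is negative beside a positive Il13.

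Because Dnmt1 acts on CpG dinucleotides, the 250 bases before the annotated start are shown for the pair of Th2 neighbours with differences of opposite sign and for Csf2, Il17a and Ifng. They are from RefSeq (GRCm38.p6), each 5′ to 3′ on the strand of its gene, with every CG in capitals. They lie at chr11:53618666-53618915 (minus strand) for Il4, chr11:53634703-53634952 (minus) for Il13, chr11:54249900-54250149 (minus) for Csf2, chr1:20730655-20730904 (plus) for Il17a and chr10:118440796-118441045 (plus) for Ifng.
Il4: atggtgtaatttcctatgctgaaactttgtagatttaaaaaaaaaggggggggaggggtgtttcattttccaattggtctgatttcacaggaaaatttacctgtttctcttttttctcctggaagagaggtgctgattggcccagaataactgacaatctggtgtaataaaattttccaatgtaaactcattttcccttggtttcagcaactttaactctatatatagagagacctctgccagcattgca
Il13: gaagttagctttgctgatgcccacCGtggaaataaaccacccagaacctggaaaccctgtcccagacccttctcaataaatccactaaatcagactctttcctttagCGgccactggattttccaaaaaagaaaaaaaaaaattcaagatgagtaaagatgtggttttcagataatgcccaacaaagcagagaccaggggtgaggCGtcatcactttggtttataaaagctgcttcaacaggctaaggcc
Csf2: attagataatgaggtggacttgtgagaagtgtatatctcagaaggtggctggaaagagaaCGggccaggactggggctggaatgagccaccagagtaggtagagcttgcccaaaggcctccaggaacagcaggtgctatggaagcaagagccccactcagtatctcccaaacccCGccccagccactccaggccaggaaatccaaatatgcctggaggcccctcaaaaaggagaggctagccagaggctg
Il17a: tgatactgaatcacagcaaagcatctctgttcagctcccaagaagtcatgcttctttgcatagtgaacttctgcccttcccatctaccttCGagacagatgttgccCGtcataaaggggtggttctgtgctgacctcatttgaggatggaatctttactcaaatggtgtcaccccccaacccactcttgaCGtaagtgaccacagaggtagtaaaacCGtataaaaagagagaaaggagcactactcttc
Ifng: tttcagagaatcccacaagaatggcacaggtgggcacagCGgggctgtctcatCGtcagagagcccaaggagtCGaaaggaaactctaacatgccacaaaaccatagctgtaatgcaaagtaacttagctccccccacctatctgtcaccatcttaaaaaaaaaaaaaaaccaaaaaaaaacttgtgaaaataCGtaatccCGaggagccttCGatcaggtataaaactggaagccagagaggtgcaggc

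Il4 has no CG in this window, as its all lower-case line shows, Csf2 has 2, Il13 has 3, Il17a has 4 and Ifng has 6. Of the 10 genes 9, all but Il10, matched the promoter table at their annotated start. Those not shown had 2 CG for Il2 and Il5, 5 for Il21 and 10 for Tnf, whose difference was -0.0004. The median over 32851 promoters of that table was 6, and 92.1% of them held at least 1. The letters GGAAA, the core bound by NFAT factors, occurred on either strand in 8 of the 9 windows and in 55.6% of all promoters, with 5 occurrences for Il4 and none for Il17a. These counts describe the reference sequence, and their relation to the differences was not tested. Methylation was not measured in the data used here.

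Within the knockout group 3 of the 10 genes, Csf2, Ifng and Il17a, shared one order, as did 18.2% of all probe sets. This order ran from replicate 2, the highest, to replicate 3 and then replicate 1. The means of the neutrophil, monocyte and macrophage, NK and CD8, and B and plasma cell marker lists had the same order. So did those of the lists of other T cell cytokines, receptors, transcription factors, response genes and locus neighbours. The core T cell, Treg, and mast cell and basophil means fell from replicate 1 to replicate 3. The neutrophil list had means of 7.86, 9.81 and 8.51 on knockout replicates 1 to 3, against 5.89 to 6.26 on the wild type arrays. All 15 of its measured genes had positive differences, 9 passed the test as higher in the knockout, and 8 were above the edge of the floor on all 6 arrays. S100a8, an abundant antimicrobial protein gene of neutrophils, had 12.23, 13.75 and 12.88 against 9.09 to 9.89. Monocyte and macrophage markers had means of 5.95, 6.71 and 6.30 on knockout replicates 1 to 3, against 5.33 to 5.79, with 13 of 13 positive, 1 called (Cd14, under the edge on every array) and 5 above the edge throughout. Of that list Ccr2 did not pass by its brightest probe set (0.76, limma adjusted p = 0.275). It passed as higher by its other probe sets (1.01 and 1.09, limma adjusted p = 0.0300 and 0.0255). The part of these neutrophil and monocyte markers in the cytokine values was not tested.

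NK and CD8 cell markers, whose cells also make interferon gamma, had means of 7.14, 7.77 and 7.75 on knockout replicates 1 to 3, against 7.18 to 7.32 on the wild type arrays. Of 12 measured, 2 were called higher (Ncr1 and Klrc1), 1 lower (Klra8), and 9 were above the edge on all arrays, Klra1 being under it on each. Differences were positive for 7 of the 12. Those of the CD8 chain genes Cd8a (-0.36) and Cd8b1 (-0.61) were negative and did not pass, so the list mean joins unlike directions. Mast cell and basophil markers, whose cells make interleukin-4 and interleukin-13, had means of 5.38, 5.29 and 5.15, against 4.78 to 4.86. Of those 12 genes 11 had positive differences (median 0.30), none passed, and 3 were above the edge on all arrays. Kit (1.17 by its brighter probe set), Hdc (1.00), Mcpt8 (0.96), Fcer1a (0.60, adjusted p = 0.0564) and Cpa3 (0.25) were wholly higher on the knockout arrays. The other Kit probe set had 0.15 (limma adjusted p = 0.720) and overlapped. Tpsb2, Tpsab1, Cma1, Mcpt4, Gata2 and Gata1 also overlapped between the groups, as did Ms4a2 (0.17), the fellow receptor subunit of Fcer1a. Fcer1a and Ms4a2 were under the edge on every array. B and plasma cell markers had means of 7.19, 7.67 and 7.30 on knockout replicates 1 to 3, against 7.03 to 7.96 on the wild type arrays. Of 10 measured, 5 had positive differences, none passed, and 7 were above the edge on all arrays. Markers of T cells were high throughout, with 12 of 12 core genes above the edge on every array and means of 10.81, 10.50 and 10.37 on knockout replicates 1 to 3, against 10.66 to 10.78. Their differences were positive for 0 of 12 and had a median of -0.15, and none passed, the lowest p being that of Cd28 (-0.39, adjusted p = 0.0881). Of 12 Treg markers 11 were above it throughout, and 4 passed as lower in the knockout, Il2ra, Ikzf2, Nrp1 and Cd83. Ikzf2 was over the edge on 2 arrays only, and neither of the other Nrp1 probe sets passed (adjusted p = 0.0643 and 0.0564). Itgae (0.64, adjusted p = 0.139, wholly higher on the knockout arrays) and Gpr83 (0.14) were the 2 Treg markers with positive differences. The Treg list had means of 9.18, 8.80 and 8.52 on knockout replicates 1 to 3, against 9.22 to 9.29. Their part in the cytokine values was not tested, and in such bulk RNA fewer cells of a type and less RNA per cell cannot be told apart.

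**Figure D4:**
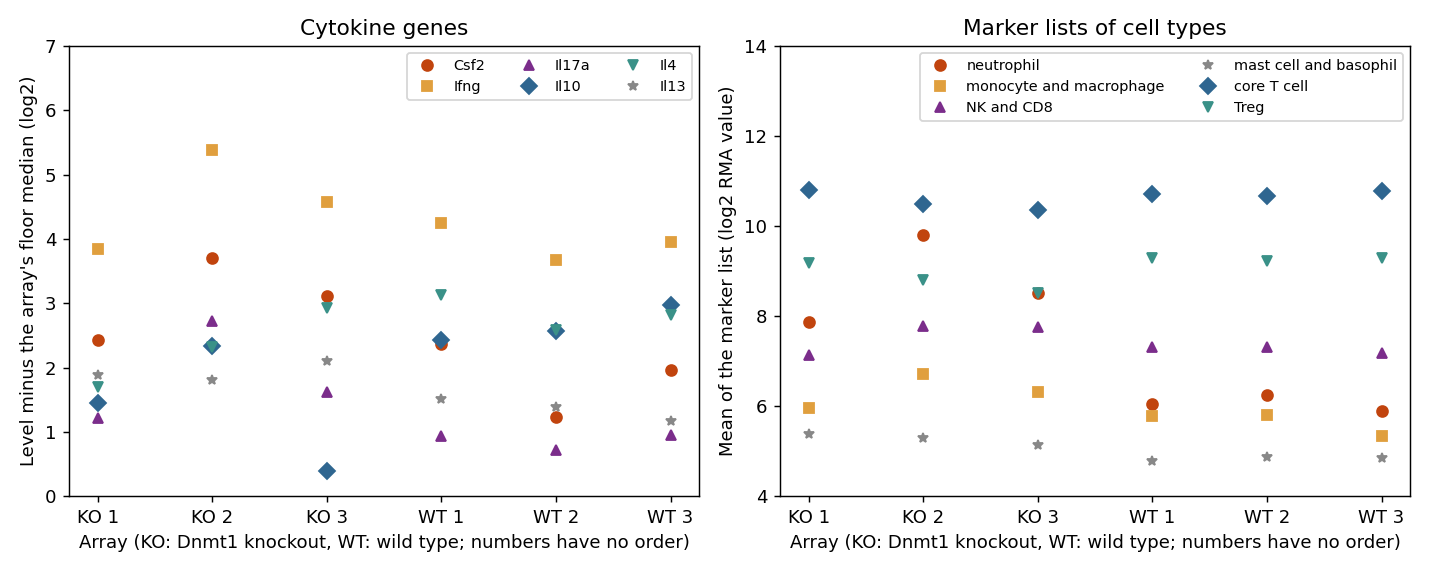
Left, levels of 6 cytokine genes above the floor median of each array (log2). Right, mean level of marker lists of 6 cell types on the same arrays (log2 RMA), with the B and plasma cell list not drawn. KO 2 is the highest knockout array for Csf2, Ifng, Il17a and Il10, and for the neutrophil, monocyte and macrophage, and NK and CD8 lists. KO 3 is the lowest for Il10 and for the Treg, core T cell, and mast cell and basophil lists.

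The spread within the knockout was larger than in wild type for 7 of the 10 cytokine genes, as for 60.7% of all probe sets. The exceptions were Il2, Il13 and Il21.

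Of 17 measured other T cell cytokine genes none passed (0 higher and 0 lower), with a median difference of 0.051. The lowest p values belonged to Xcl1, the lymphotactin gene, at 8.97 ± 0.64 in the knockout and 8.06 ± 0.25 in wild type (SD, n = 3; adjusted p = 0.183), and to Fasl, the death ligand gene, at 7.69 ± 0.47 and 7.11 ± 0.16 (adjusted p = 0.242). Il3, Il6, Il9, Il24, Il12a and Cd40lg were under the edge on all arrays. Of 17 receptor genes for the 10 cytokines 1 passed and 16 did not, with a median of -0.092. Il2ra, the CD25 gene on whose product the cells were separated, fell to 8.38 ± 0.20 in the knockout, against 9.03 ± 0.11 in wild type (adjusted p = 0.0444 by its brighter probe set and 0.308 by the other). It passed in 7 of 13 alternatives, failing with the replicate number as a block and without any 1 array other than knockout replicate 1 (adjusted p up to 0.187). The interferon gamma receptor chains had differences of opposite sign, 0.56 for Ifngr1 (adjusted p = 0.161) and -0.39 for Ifngr2 (adjusted p = 0.105). Csf2ra and Csf2rb, the GM-CSF receptor genes, which myeloid cells express, had 0.35 and 0.39 and were highest on knockout replicate 2.

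Among 27 measured transcription factor genes that control these cytokines, 1 passed and 26 did not, with a median of -0.020. Prdm1, the gene of the repressor Blimp1, rose to 7.81 ± 0.09 in the knockout, against 7.36 ± 0.003 in wild type (difference 0.45, limma adjusted p = 0.0402). That call was lost in the same 6 alternatives as that of Il2ra, with an adjusted p of up to 0.169. Junb, an AP-1 subunit gene, had the next lowest p (-0.39, adjusted p = 0.170). The lineage factors did not pass, with Tbx21 of Th1 cells at 0.37 (adjusted p = 0.458), Gata3 of Th2 cells at -0.13 (0.628) and Rora, a Th17 factor, at 0.70 (0.216). Maf, a factor for Il4, Il10 and Il21, was under the edge on every array. Of 22 genes that respond to these cytokines none passed, with 12 positive differences and a median of 0.061. The lowest p values were those of Traf1, a signalling adaptor induced by NF-kB (-0.25, adjusted p = 0.150), and Socs2, a feedback inhibitor induced by STAT5 (0.47, adjusted p = 0.219).

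For each cytokine gene that spanned over 1 on the log2 scale, the 2 genes with the most similar profile over the 6 arrays were sought, by the root mean square difference of levels centred on each gene's mean. Il13 had the closest, Bst2 and Ifit1, each at 0.060. Bst2 read 9.16, 9.03 and 9.35 on knockout replicates 1 to 3, against 8.72, 8.82 and 8.42 in wild type. For Il17a they were Vcl (0.093) and Adgrg3 (0.106), and for Ifng Ackr3 (0.091) and Xcl1 (0.135). For Csf2 they were Kit (0.159 by its brighter probe set, a mast cell marker gene above) and Klrb1a (0.21). Kit read 5.39, 6.48 and 5.70 on knockout replicates 1 to 3, whereas the means of its mast cell and basophil list fell in that order. Il4 was nearest to Nudt19 (0.117) and Atp8a2 (0.129). Values were largest for Il10, the gene with the widest span, with Iglv1 at 0.391 and Sfn at 0.404. These are descriptions over 6 arrays that share their groups.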

How the data were processed

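Per the submitters' processing notes the authors used RMA, and the deposited table holds its log2 values, 1 per probe set and array. The version and options of RMA are not stated there. They ran from 1.93 to 14.7. RMA equalises arrays and compresses low levels, so fold changes near the floor are understated. Of 22690 probe sets 64 controls were left out. Of the rest 20380 had 1 gene symbol, 691 several and 1555 none, and 20351 of the first were found by gene ID in a RefSeq table (GRCm38.p6). Arrays were grouped by their titles and genotype labels. Knockout and wild type were compared with limma 3.58.1 in R 4.3.3 (lmFit, eBayes, two-sided, Benjamini-Hochberg over 22626 probe sets, called under 0.05) without a filter. The fit was tested on simulated data. Other genes are given by their brightest probe set. The members, gene lists, floor rule and naming rule were chosen with earlier results of these data known. The naming rule took the 10 cytokine genes, called genes of each cytokine list (at most 4, or the 2 lowest p), Dnmt1, Foxp3 and the 2 closest profiles; all other names, marker genes and lineage factors among them, were chosen after their values were seen. The number of arrays limits the precision. Alternatives were other scaling, filtering, variance models, array weights, a replicate block, 1 probe set per gene, other floors and leaving out each array. Figures used matplotlib 3.10.9.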

Additional observations from a re-analysis of the deposited data

How the results depend on the processing

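The count of cytokine genes past the threshold was 0 under quantile normalisation, median centring, without the dimmest 40% of probe sets (which leaves out Il5), with the brightest probe set per gene, with trend and robust variance, with array weights and with the replicate block. Leaving out 1 array gave 0 to 1, the 1 being Csf2 without knockout replicate 1. Over all probe sets 380 passed, 236 of 12393 genes by the brightest probe set, and 29 to 756 with 1 array left out (756 without knockout replicate 1, 184 without knockout replicate 3, and 45, 79 and 29 without wild type replicates 1, 2 and 3). With the replicate block 218 passed. Deviations of same-numbered arrays from their group means correlated at -0.076, 0.11 and -0.010, and those of different-numbered arrays at -0.11 to 0.12. Deviations from a group mean are tied to each other, so these values cannot decide whether arrays with the same number belong together. The sign of the Il2 difference turned to -0.037 under quantile normalisation, -0.021 under median centring and -0.018 with array weights, and it ran from -0.15 to 0.17 with 1 array left out. That of Tnf turned to 0.015 under quantile normalisation and 0.0084 with array weights, and ran from -0.034 to 0.050. Both lay near 0 throughout. No other cytokine gene changed sign in these alternatives. Those for Il2ra, Prdm1, Spry1 and 4932438A13Rik were added after seeing the data. The number of cytokine genes above the floor in the knockout, 4, was 7, 2 and 10 with the 90th and 99th percentile of the silent genes and the 25th percentile of all probe sets as the edge, and 4 to 5 with 1 array left out. In wild type it was 5, and 10 with the 25th percentile, and 5 to 6 with 1 array left out. Signal over the floor limits the differences of genes with a group mean under the edge: Il2, Il5, Il13 and Il17a in both groups, Il10 in the knockout and Csf2 in wild type.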
